A study of Mus musculus with 19 samples.

Results

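Expression of 10 bile acid transport and conjugation genes was followed across 19 libraries of mouse liver tumors. The genes were taken by symbol from a deposited table of 19486 genes, in which they are listed as SLC10A1, SLCO1A1, SLCO1B2, ABCB11, ABCB4, ABCC2, BAAT, HSD3B7, AMACR and SLC27A5. They were chosen by their known roles, at a time when earlier results of these data were known. All 10 were found and all 10 passed the filter on low values. The libraries fall into 5 groups, called here as the labels call them: MYC_HCC (5 libraries), MYC_Twist1_HCC (5), MYC_OFF (3), MYC_Recur (3) and MYC_Twist1_OFF (3). HCC is hepatocellular carcinoma, the tissue given for all 19. The series title speaks of MYC-driven tumors that do or do not metastasize. The labels give no promoter, strain, sex, age, treatment or time for any group and do not define OFF or Recur. They do not say whether libraries of 1 group come from separate mice, so the p-values speak only of the scatter among these libraries, which may be technical. MYC_HCC and MYC_Twist1_HCC were re-analysed from an earlier deposit and the other 3 groups are new, so a difference between an HCC group and a new group cannot be told apart from a difference between deposits.

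Bile acids are made from cholesterol in hepatocytes, joined to taurine or glycine, pumped into bile, taken up again in the gut and returned to the liver in portal blood. At the sinusoidal membrane, which faces the blood, Slc10a1 (the sodium-taurocholate cotransporter NTCP) takes up conjugated bile acids, and Slco1a1 and Slco1b2, of the organic anion transporter family, take up bile acids and other anions without sodium. At the canalicular membrane, which faces the bile, Abcb11 (the bile salt export pump BSEP) exports bile salts, Abcb4 moves phosphatidylcholine into bile, and Abcc2 (MRP2) exports conjugated organic anions such as bilirubin glucuronide. Hsd3b7 oxidizes the sterol ring early in bile acid synthesis, and Amacr changes the stereochemistry of the side chain before it is shortened. Slc27a5 activates bile acids with coenzyme A, and Baat then joins them to the amino acid. The nuclear receptor FXR (Nr1h4), which binds DNA as a partner of RXR, senses bile acids and is known to drive Abcb11.

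Start regions are shown for 2 genes that differed between groups together, Slc10a1 and Abcb11, for 1 gene of the same membrane as Slc10a1 that did not, Slco1b2, and for Abcc2, which moved the other way. Sequences are from RefSeq on build GRCm38.p6, which has the coordinates of mm10, and lie just before the annotated transcript start, 5′ to 3′ on the strand of the gene. Of the genes shown, Slc10a1 is on chromosome 12 (80953183 to 80968705, minus strand), Abcb11 on chromosome 2 (69238282 to 69342616, minus strand), Slco1b2 on chromosome 6 (141629518 to 141686646, plus strand) and Abcc2 on chromosome 19 (43782192 to 43840740, plus strand). Of the others, Slco1a1 is on chromosome 6 (141907282 to 141946962), Abcb4 on chromosome 5 (8893717 to 8959231), Baat on chromosome 4 (49489422 to 49506557), Amacr on chromosome 15 (10981756 to 10996626) and Slc27a5 on chromosome 7 (12988346 to 12998192). The printed stretches are chr12:80968706-80968955, chr2:69342617-69342866, chr6:141629268-141629517 and chr19:43782058-43782191, and none overlaps an annotated exon. Capitals mark the nuclear receptor hexamer AGGTCA on either strand, which reads TGACCT where it lies on the opposite strand.
Slc10a1: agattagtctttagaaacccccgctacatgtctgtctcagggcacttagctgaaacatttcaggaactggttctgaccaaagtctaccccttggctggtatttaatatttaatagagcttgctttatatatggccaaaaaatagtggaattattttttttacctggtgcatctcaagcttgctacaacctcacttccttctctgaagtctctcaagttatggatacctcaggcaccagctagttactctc
Abcb11: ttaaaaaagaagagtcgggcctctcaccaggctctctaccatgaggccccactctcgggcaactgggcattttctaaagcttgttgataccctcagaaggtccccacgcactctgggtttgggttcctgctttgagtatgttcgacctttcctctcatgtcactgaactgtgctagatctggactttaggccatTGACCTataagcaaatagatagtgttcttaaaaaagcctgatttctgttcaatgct
Slco1b2: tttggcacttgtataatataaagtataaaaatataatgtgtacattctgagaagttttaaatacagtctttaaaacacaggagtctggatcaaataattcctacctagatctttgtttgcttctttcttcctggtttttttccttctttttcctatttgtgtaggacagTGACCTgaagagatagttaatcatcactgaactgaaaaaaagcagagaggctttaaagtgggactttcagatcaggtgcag
Abcc2: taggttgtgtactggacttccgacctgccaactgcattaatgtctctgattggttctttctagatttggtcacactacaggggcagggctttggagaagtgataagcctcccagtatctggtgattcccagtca
A RefSeq start region was matched for 7 of the 10 genes, all but Baat, Amacr and Slc27a5. In the 250 bases before the RefSeq start, 4 of the 7 held the hexamer. It began 56 bases before the start in Abcb11 and 81 bases before it in Slco1b2, and lay beyond the printed stretch in Abcc2; Slco1a1 held it 2 times, and Slc10a1, Abcb4 and Hsd3b7 did not hold it. Of 32851 such windows over all genes, 14% held it. The inverted repeat of this hexamer spaced by 1 base is the form FXR is known to bind in many promoters. Only its exact letters were searched, on both strands, and they were in none of the 7 and in 0.00609% of all windows. A string that rare would be missed in 7 windows in nearly any case, so its absence says nothing of FXR sites. The printed stretch of Abcb11 holds aggccatTGACCT, which differs from that repeat by 1 letter. The E-box CACGTG, the motif MYC is known to bind, was in none of the 7 and in 6.02% of all. A match is a string of letters and not a measured site.

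As a check of the labels, Myc was low in both OFF groups, at no more than 59.8 in MYC_OFF and 45.7 in MYC_Twist1_OFF. It was at least 129 in the MYC_HCC libraries, at least 102 in the MYC_Twist1_HCC libraries and at least 152 in the MYC_Recur libraries. Values are the authors' normalized signal, whose formula and library depth are not given, so levels are compared between libraries and not between genes. Twist1 was at most 0.27 in any library and at most 0.12 in those labelled Twist1, so Twist1 does not separate the groups and comparisons of the Twist1 label rest on the labels alone. The sum of a library's values ranged from 507868 to 690310. The median of all genes tested also moved: on the log2(value + 1) scale used throughout it lay at -0.38 when MYC_OFF was set against MYC_HCC, at -0.32 when MYC_Twist1_OFF was set against MYC_Twist1_HCC and at 0.45 for MYC_Recur against MYC_OFF, and differences are given beside it.

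One library stood apart before any comparison. In MYC_HCC 4, 9 of the 10 genes were higher than in each of the other 4 MYC_HCC libraries, against 27.3% of all 13253 genes tested. Of these, 8 were higher than in all 18 other libraries. The share of all genes higher there than in all 18 was not counted. Slc27a5 stood at 71.3 there and at 1.35 to 3.42 in the other 4, 42.2 times their median. Slco1b2 was 19.7 times the median of the other 4, Abcb11 17.7 times, Abcb4 17.7 times, Baat 10.9 times and Slc10a1 8.86 times. Amacr (3.11 times), Abcc2 (2.23 times) and Hsd3b7 (1.52 times) stood out least. Slco1a1, at 2.86, was 4.06 times that median but was higher in MYC_HCC 5, at 3.28.

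**Figure D1:**
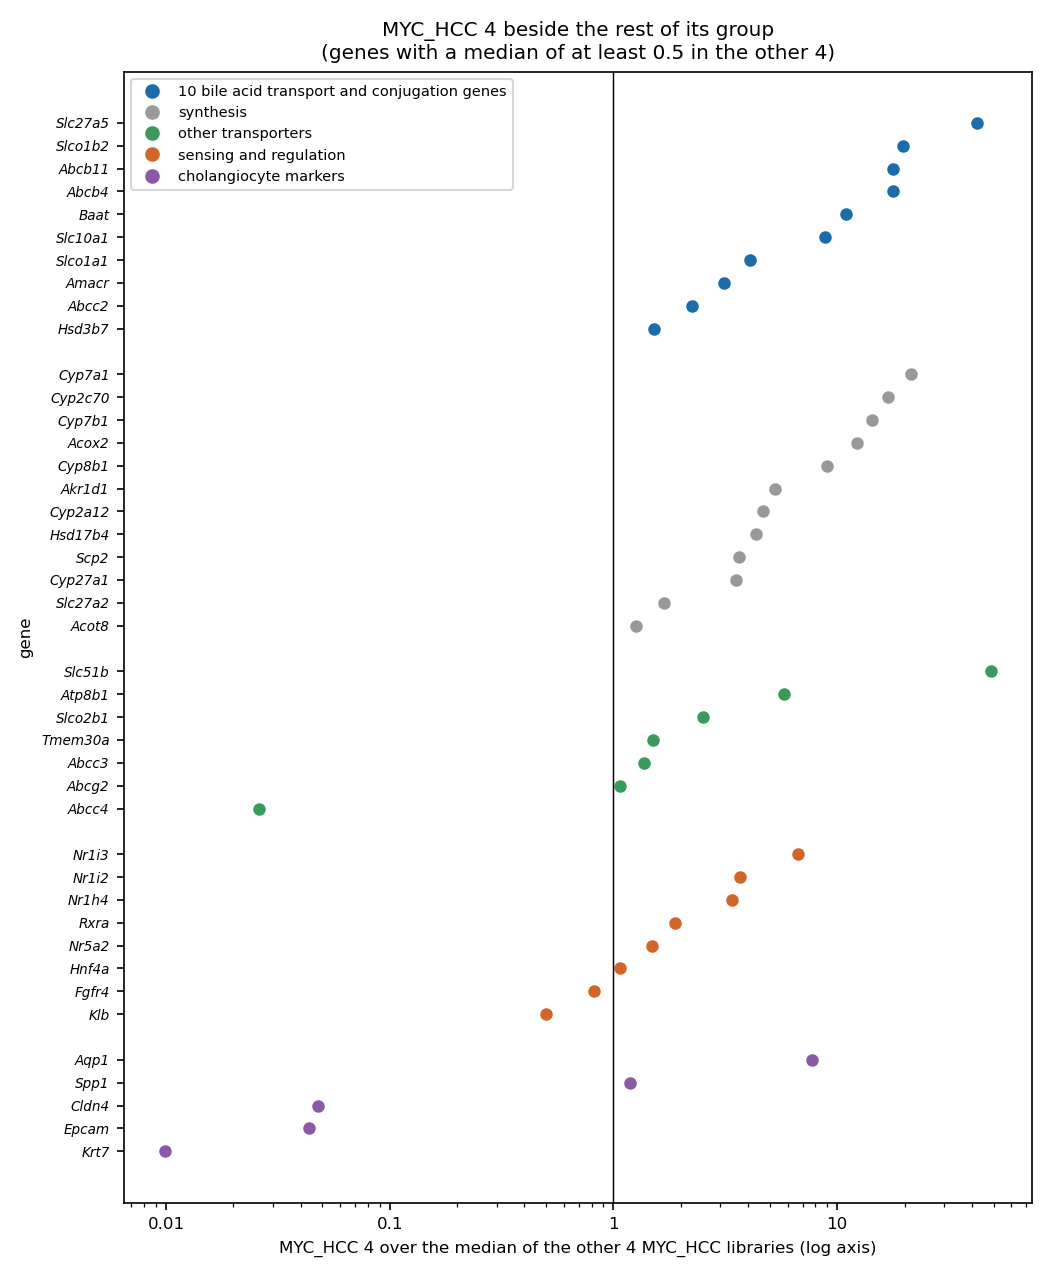
Each point is the level of 1 gene in MYC_HCC 4 divided by its median in the other 4 MYC_HCC libraries, on a log axis, for genes with a median of at least 0.5. The 10 bile acid genes all lie above 1, up to 42.2 for Slc27a5, while Krt7, Epcam and Abcc4 lie far below 1.

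Other genes marked the same library. Cyp7a1, the rate-limiting enzyme of bile acid synthesis, stood at 54.6 in MYC_HCC 4 and at 1.24 to 3.5 in the other 4, and 13 of 14 synthesis genes were above those 4 libraries. Slc51b, a subunit of the basolateral bile acid exporter, was at 67.8 against 0.98 to 8.8, and Abcc4, another basolateral exporter, was at 0.35 against 12.1 to 17.9. Of 21 mature hepatocyte markers 20 were above the other 4, among them Tdo2, a tryptophan-degrading enzyme of adult liver, at 445 against 1.79 to 9.15. Krt7, a bile duct keratin, was at 0.39 against 9.26 to 52.7 and Epcam, an epithelial surface protein of ducts and progenitors, at 0.56 against 0.95 to 41.3. Of 10 stellate cell and fibroblast markers, 9 were higher there too, and of 8 endothelial markers 5 were and 1 was lower, with Cdh5 at 6.82 times and Pecam1 at 6.04 times the median of the other 4. Of 9 macrophage markers 6 were lower than in each of the other 4 and 1 was higher, with Lyz2 at 87.9 against 197 to 367. The share of all genes lower there than in each of the other 4 was not counted, so the lower counts have no background beside them. The noncoding RNA Bc1 was at 190 in MYC_HCC 4 and 414 in MYC_HCC 5, against 4587 to 6115 in the other 3, and Myc in MYC_HCC 4, at 129, was the lowest of the group. The part of any of these in the high bile acid genes was not tested. Because the fit shares 1 spread over all libraries, MYC_HCC 4 was also left out of comparisons that do not contain it. Values without it are given beside the 10 genes where a call changes, and beside some other genes and counts.

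**Figure D2:**
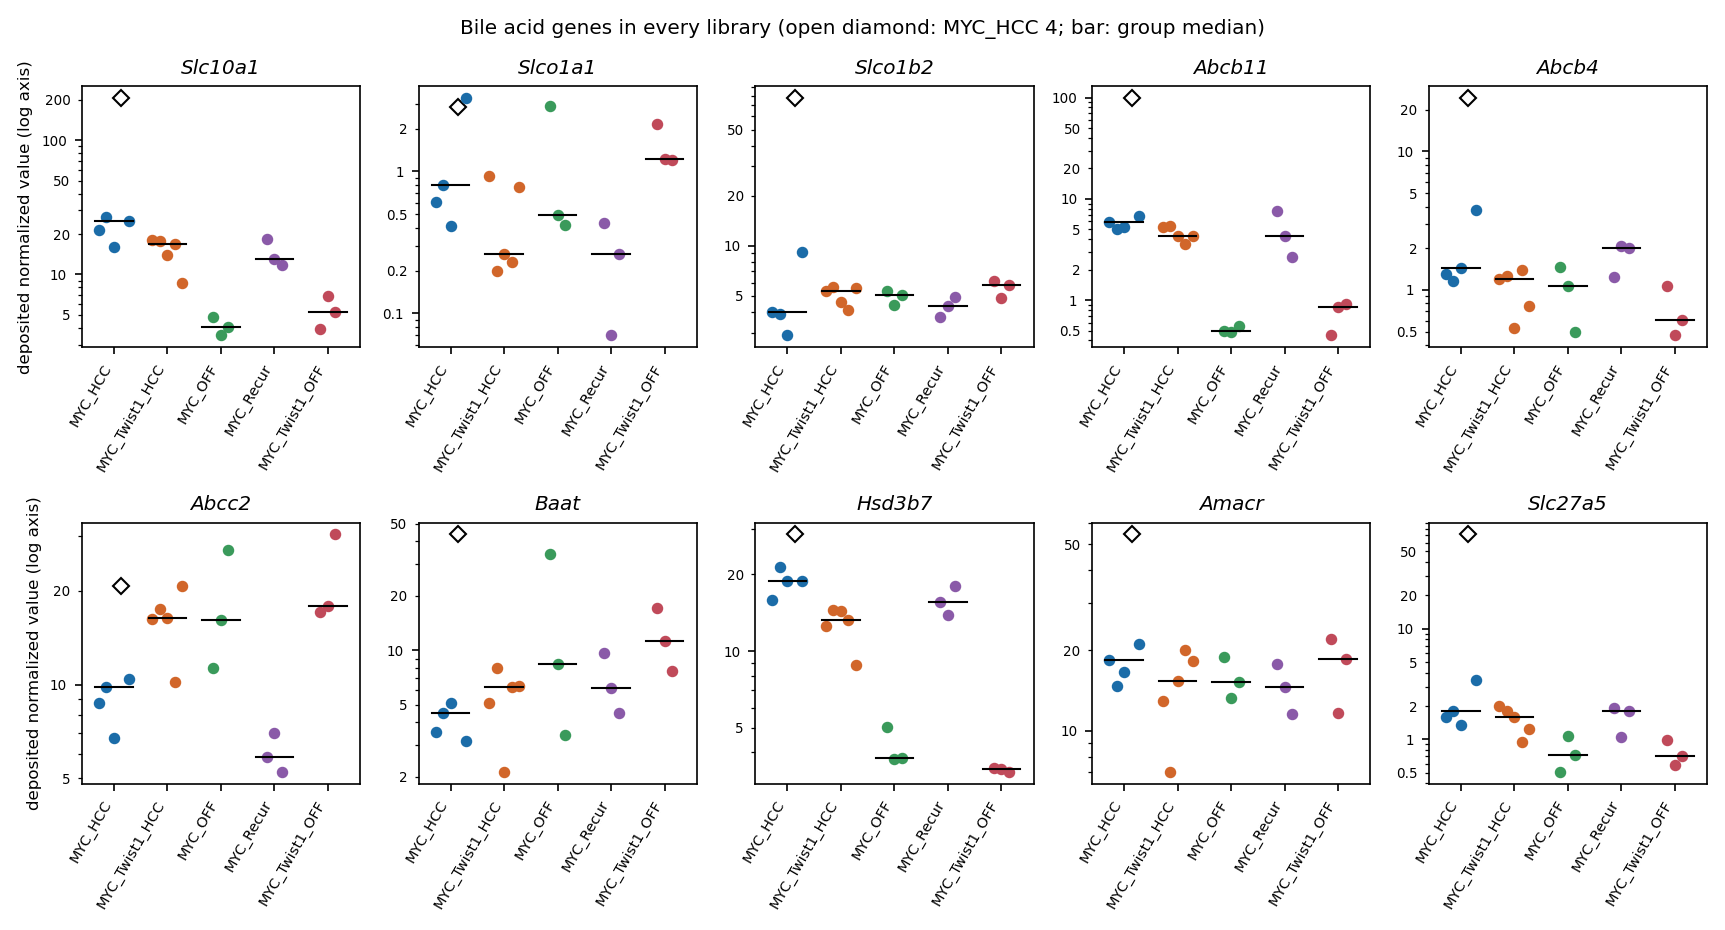
Each panel shows 1 gene, with every library as a point on a log axis of the deposited value, the 5 groups along the x axis, a bar at the group median and MYC_HCC 4 as an open diamond. Slc10a1, Abcb11 and Hsd3b7 are low in both OFF groups, Abcc2 is lowest in MYC_Recur, and MYC_HCC 4 is the top point of its group in 9 of 10 panels.

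The comparison of MYC_OFF with MYC_HCC asks how these genes stand in tumors labelled OFF. An uptake transporter, an export pump and a synthesis enzyme were lower together in MYC_OFF, with log2 differences of -2.80 (Slc10a1), -2.93 (Abcb11) and -2.05 (Hsd3b7). Among the 10 genes 3 fell and none rose by limma, while 39.4% of all genes tested fell and 18.9% rose, so the share that fell was near the background. The median of the 10 was -0.90, against -0.38 over all genes. Without MYC_HCC 4 the median was -0.32, against -0.40 over all, 4 fell (41.6% of all genes) and 1 rose (19.2%). Leaving out that library added Slc27a5 to those that fell and Abcc2 to those that rose.

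Slc10a1, the main uptake carrier of conjugated bile acids, stood at 21.4, 26.9, 16.1, 206 and 25.1 in MYC_HCC 1 to 5 and at 4.84, 3.52 and 4.09 in MYC_OFF. Every MYC_OFF library was below every MYC_HCC library. The difference of -2.80 (SE 0.55, limma adjusted p = 0.000293) became -2.17 (SE 0.26, limma adjusted p = 2.62e-06) without MYC_HCC 4. Slc10a1 was called lower under each of the 4 other scalings, at -2.84 to -2.32.

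Abcb11, the pump that sets the rate of bile salt secretion, stood at 5.91, 5.08, 5.28, 99.1 and 6.73 in MYC_HCC and at 0.5, 0.48 and 0.55 in MYC_OFF. The groups did not overlap, and the 3 MYC_OFF libraries were close to each other. Its difference was -2.93 (SE 0.64, limma adjusted p = 0.000807), and -2.15 (SE 0.24, limma adjusted p = 1.46e-06) without MYC_HCC 4. Since the MYC_OFF values were under 1, the added 1 of the log scale understates this change. On the deposited values, the median of MYC_HCC was 5.91 and that of MYC_OFF 0.5. Abcb11 overlaps the antisense gene Gm13613 and a processed pseudogene, Gm13614, and whether counting used strand is not given.

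Hsd3b7, the synthesis enzyme on chromosome 7 (127800604 to 127803802), stood at 15.8, 21.4, 18.8, 28.7 and 18.9 in MYC_HCC and at 5.02, 3.76 and 3.79 in MYC_OFF. Every MYC_OFF library was below every MYC_HCC library, and MYC_HCC 4 stood less far out than in the other 2 genes that fell. The difference was -2.05 (SE 0.20, limma adjusted p = 3.47e-07), or -1.93 (SE 0.19, limma adjusted p = 4.17e-07) without MYC_HCC 4. Its gene overlaps Gm49388 on the same strand and 9430064I24Rik on the other, so its reads are uncertain to that extent.

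The other sinusoidal and canalicular genes were not called in this comparison with all libraries. Slco1b2 stood at 2.89 to 9.13 in 4 MYC_HCC libraries and at 77.3 in MYC_HCC 4, against 4.41 to 5.35 in MYC_OFF, and its difference went from -0.67 (SE 0.63) to 0.09 (SE 0.25) without that library. Slco1a1 was low throughout, at 0.41 to 3.28 in MYC_HCC and 0.42 to 2.89 in MYC_OFF (-0.20, SE 0.38). Abcb4, the phospholipid floppase, had a difference of -1.12 (SE 0.56, limma adjusted p = 0.0918), and of -0.48 (SE 0.28, limma adjusted p = 0.143) without MYC_HCC 4; without MYC_HCC 2 it passed the threshold (-1.37, limma adjusted p = 0.048). Abcc2 was at 6.74 to 10.4 in 4 MYC_HCC libraries and 20.8 in MYC_HCC 4, against 11.3, 16.1 and 27.1 in MYC_OFF. Its difference of 0.65 (SE 0.32, limma adjusted p = 0.089) became 0.88 (SE 0.28, limma adjusted p = 0.0128) without MYC_HCC 4, where the groups did not overlap. Abcc2 was also called higher without MYC_OFF 1 (0.93, limma adjusted p = 0.0331), and with all libraries under 3 of the 4 other scalings, at 1.03 to 1.18.

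The conjugating enzymes differed from each other. Slc27a5, the bile acid coenzyme A ligase, stood at 1.35 to 3.42 in 4 MYC_HCC libraries and at 0.51, 1.08 and 0.72 in MYC_OFF. It was not called with MYC_HCC 4 in the group (-1.67, SE 0.74, limma adjusted p = 0.0623) and fell without it (-0.75, SE 0.24, limma adjusted p = 0.013). It also passed the threshold without MYC_HCC 1, 2 or 3 (-1.98 to -1.92, limma adjusted p of at most 0.0444). Baat, the amino acid transferase, stood at 3.16 to 5.13 in those 4 libraries and at 34.0, 8.41 and 3.4 in MYC_OFF, and the spread within MYC_OFF exceeded the difference between groups (0.54, SE 0.68). Without MYC_HCC 4 Baat was at 1.17 (SE 0.51, limma adjusted p = 0.0568). Amacr, at 14.8 to 21.2 in those 4 and 13.3 to 18.8 in MYC_OFF, showed no called difference (-0.48, SE 0.37, limma adjusted p = 0.273).

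MYC_Twist1_OFF against MYC_Twist1_HCC repeats the OFF comparison in libraries that the first does not use. Of the 10 genes 2 fell, Abcb11 and Hsd3b7, and none rose, against 33.5% of all genes lower and 13.1% higher. The median of the 10 was -0.06, against -0.32 over all genes. Without MYC_HCC 4, which is in neither group but enters the shared spread, 3 fell (36.6% of all genes), with Slc10a1 added.

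Slc10a1 stood at 18.0, 17.8, 13.9, 16.9 and 8.6 in MYC_Twist1_HCC and at 3.89, 6.95 and 5.25 in MYC_Twist1_OFF. Those groups did not overlap. The difference of -1.32 (SE 0.55, limma adjusted p = 0.055) missed the threshold with all libraries and passed it, at the same size, without MYC_HCC 4 (SE 0.25, limma adjusted p = 0.000347), and also without MYC_Twist1_HCC 5 (-1.49, limma adjusted p = 0.0409). Abcb11 stood at 5.33, 5.42, 4.28, 3.56 and 4.28 in MYC_Twist1_HCC against 0.45, 0.85 and 0.91, again with no overlap. Its difference was -1.68 (SE 0.64, limma adjusted p = 0.039), with SE 0.23 and a limma adjusted p = 2.26e-05 without MYC_HCC 4. The call on Abcb11 was lost when any 1 of its 8 libraries was left out (-1.76 to -1.56, limma adjusted p up to 0.118), and with all libraries under each of the 4 other scalings, at -1.67 to -1.44. With MYC_HCC 4 left out, both Slc10a1 and Abcb11 were called lower under all 4.

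Hsd3b7 stood at 12.6, 14.6, 14.4, 13.3 and 8.8 in MYC_Twist1_HCC and at 3.48, 3.44 and 3.36 in MYC_Twist1_OFF. No library overlapped, and its difference of -1.61 (SE 0.20, limma adjusted p = 9.85e-06) had the smallest error of the 10 in this comparison. Baat (1.0, SE 0.68), Slco1a1 (0.78, SE 0.38), Abcc2 (0.39, SE 0.32), Amacr (0.26, SE 0.37) and Slco1b2 (0.12, SE 0.63) had positive differences and Slc27a5 (-0.50, SE 0.74) and Abcb4 (-0.24, SE 0.56) negative ones, none of them called. Baat was at 2.13 to 7.95 in MYC_Twist1_HCC and at 17.0, 11.3 and 7.63 in MYC_Twist1_OFF, so only the lowest MYC_Twist1_OFF library fell within the range of the HCC libraries. Slco1a1 was at 0.2 to 0.93 in MYC_Twist1_HCC and at 1.21 to 2.15 in MYC_Twist1_OFF, with no overlap but near the floor of the filter.

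Whether the OFF difference itself depended on the Twist1 label was tested as an interaction. None of the 10 was called, against 0.0981% of all genes; the estimates ran from -0.26 (SE 0.45) for Abcc2 to 1.48 (SE 0.77, limma adjusted p = 0.657) for Slc10a1. Without MYC_HCC 4 the value for Slc10a1 was 0.85 (SE 0.36, limma adjusted p = 0.575). MYC_Twist1_OFF against MYC_OFF, 3 libraries against 3 within the new deposit, also gave no call among the 10, and 0.00755% of all genes passed. Its differences for the 10 ran from -0.22 (SE 0.23) for Hsd3b7 to 0.30 (SE 0.43) for Slco1a1. Hsd3b7 was at 3.76 to 5.02 in MYC_OFF and at 3.36 to 3.48 in MYC_Twist1_OFF, without overlap. In both of these tests none of the 10 had an unadjusted p under 0.05 with all libraries.

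**Figure D3:**
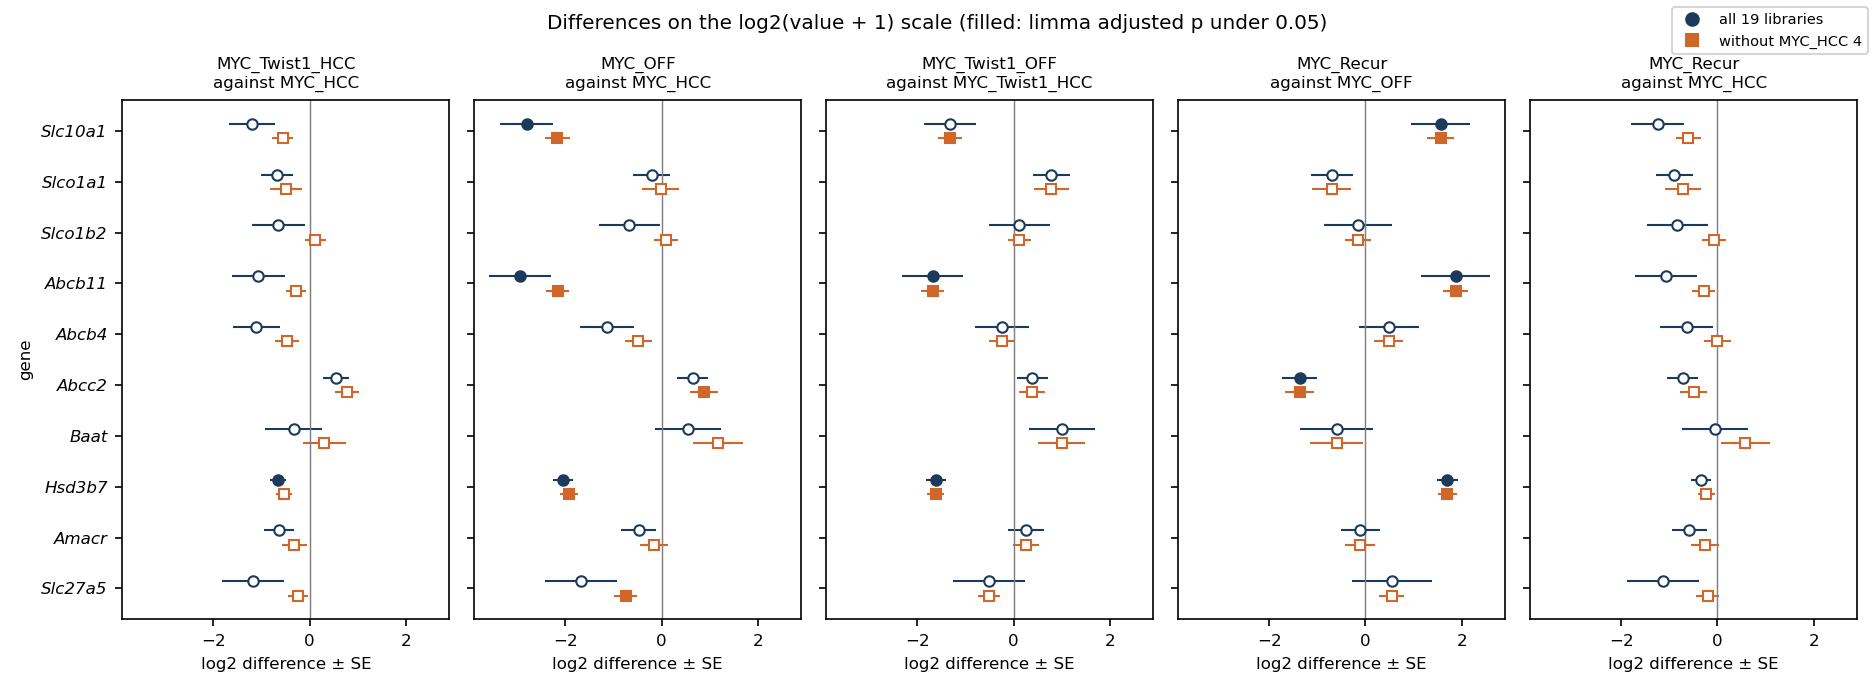
Log2 differences ± SE of the 10 genes in 5 comparisons, with all 19 libraries (circles) and without MYC_HCC 4 (squares); filled symbols passed an adjusted p under 0.05 by limma. Slc10a1, Abcb11 and Hsd3b7 lie below 0 in both OFF comparisons and above 0 in MYC_Recur against MYC_OFF, and Abcc2 lies below 0 there.

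MYC_Recur against MYC_OFF compares 2 groups of the same new deposit. The same 3 genes that were lower in MYC_OFF than in MYC_HCC were higher in MYC_Recur than in MYC_OFF, and Abcc2 was lower. The 3 that rose stand against 37.5% of all genes that rose, and the 1 that fell against 12.0%. The median of the 10 was 0.19, against 0.45 over all genes. The comparison shares its MYC_OFF libraries with the first one, so the match in genes is not independent of it.

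Hsd3b7 stood at 15.6, 13.9 and 18.1 in MYC_Recur against 5.02, 3.76 and 3.79, a difference of 1.70 (SE 0.23, limma adjusted p = 1.19e-05). Slc10a1 stood at 18.2, 12.9 and 11.8 against 4.84, 3.52 and 4.09 (1.56, SE 0.61, limma adjusted p = 0.0416, or limma adjusted p = 0.000176 without MYC_HCC 4). Abcb11 stood at 7.64, 4.31 and 2.67 against 0.5, 0.48 and 0.55 (1.87, SE 0.72, limma adjusted p = 0.0378, or limma adjusted p = 1.73e-05 without MYC_HCC 4). None of these 3 genes, which are the ones called higher, overlapped between the groups. How many of all genes tested lacked overlap was not counted, here or in any other comparison. The call on Slc10a1 was lost when any 1 of the 6 libraries was left out (1.38 to 1.68, limma adjusted p up to 0.12). That on Abcb11 was lost when any of them but MYC_Recur 3 was (lowest 1.55, limma adjusted p up to 0.133). Without MYC_Recur 3 Abcb11 stayed called, at 2.17. With all libraries both calls were lost under each of the 4 other scalings, which lowered Slc10a1 to between 0.97 and 1.47, and both were called under all 4 with MYC_HCC 4 left out.

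Abcc2 stood at 5.86, 7.01 and 5.25 in MYC_Recur and at 11.3, 16.1 and 27.1 in MYC_OFF. Every MYC_Recur library was below every MYC_OFF library, and the difference of -1.37 (SE 0.36, limma adjusted p = 0.00418) ran against the shift of all genes. It was called under each of the 4 other scalings, at -1.99 to -1.44. The other 6 genes were not called. Baat (-0.60, SE 0.76), Slco1a1 (-0.70, SE 0.43), Slco1b2 (-0.16, SE 0.71) and Amacr (-0.11, SE 0.41) had negative differences, and Slc27a5 (0.55, SE 0.83) and Abcb4 (0.48, SE 0.62) positive ones near that of the median gene.

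MYC_Recur against MYC_HCC asks how far the libraries labelled Recur stand from the HCC group. None of the 10 was called by limma, with 3 at an unadjusted p under 0.05, against 3.93% of all genes lower and 6.90% higher. Their differences ran from -1.24 (SE 0.55) for Slc10a1 to -0.05 (SE 0.68) for Baat, with a median of -0.78. Without MYC_HCC 4 none was called either, and 1 had an unadjusted p under 0.05 by limma. The differences then ran from -0.72 (SE 0.38) for Slco1a1 to 0.58 (SE 0.51) for Baat, with a median of -0.25. Slc10a1 was then at -0.61 (SE 0.26). Hsd3b7 was at 13.9 to 18.1 in MYC_Recur and 15.8 to 28.7 in MYC_HCC, which overlap. Abcc2 was at 5.25 to 7.01 in MYC_Recur and 6.74 to 20.8 in MYC_HCC (-0.72, SE 0.32, limma adjusted p = 0.167). Without MYC_HCC 4 its difference was -0.49 (SE 0.28, limma adjusted p = 0.314).

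MYC_Twist1_HCC against MYC_HCC compares tumors labelled with and without Twist1 within the re-analysed deposit. Hsd3b7 fell (-0.66, SE 0.18, limma adjusted p = 0.0329), and none of the other 9 was called, against 3.23% of all genes lower and 3.20% higher. The call on Hsd3b7 ended without MYC_HCC 4 (-0.54, SE 0.16, limma adjusted p = 0.0599; 3.03% of all genes were then lower), and also when MYC_HCC 2, MYC_HCC 5, MYC_Twist1_HCC 1 or MYC_Twist1_HCC 5 was left out. All 5 MYC_Twist1_HCC libraries, at 8.8 to 14.6, were still below all 5 MYC_HCC libraries, at 15.8 to 28.7. With all libraries Abcc2 had the only positive difference (0.55, SE 0.28), with 10.2 to 20.8 in MYC_Twist1_HCC. Without MYC_HCC 4 it was at 0.78 (SE 0.25, limma adjusted p = 0.0715). Slco1b2 (0.12, SE 0.22) and Baat (0.31, SE 0.45) were then positive too. The remaining 8 ran from -1.20 (SE 0.47) for Slc10a1 to -0.33 (SE 0.59) for Baat, and from -0.56 for Slc10a1 to 0.31 for Baat without MYC_HCC 4.

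Ordered by group medians, Slc10a1 ran from MYC_HCC (25.1) over MYC_Twist1_HCC (16.9), MYC_Recur (12.9) and MYC_Twist1_OFF (5.25) to MYC_OFF (4.09). Its only neighbours in that order without overlap were MYC_Recur and MYC_Twist1_OFF. For Abcb11 the order was MYC_HCC (5.91), MYC_Recur (4.31), MYC_Twist1_HCC (4.28), MYC_Twist1_OFF (0.85) and MYC_OFF (0.5), with the only gap between MYC_Twist1_HCC and MYC_Twist1_OFF. Hsd3b7 had 2 gaps, from MYC_Twist1_HCC (13.3) to MYC_OFF (3.79) and from there to MYC_Twist1_OFF (3.44). Abcc2 ran the other way, from MYC_Twist1_OFF (17.8) and MYC_Twist1_HCC (16.4) down to MYC_Recur (5.86), and each group overlapped the next. In the other 6 genes every group overlapped the next as well, and the group medians of Amacr lay between 14.6 and 18.5 and those of Slco1b2 between 3.97 and 5.77. The share of all genes with such gaps was not counted.

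Other genes of the pathway were counted from lists of bile acid synthesis (14 genes), other bile acid and biliary lipid transporters (12) and bile acid sensing and regulation (12). Of 12 synthesis genes tested, 8 fell and none rose in MYC_OFF against MYC_HCC (median -1.04, against -0.38 over all genes, of which 39.4% fell). Without MYC_HCC 4, 7 fell (median -0.74, against -0.40 over all genes, of which 41.6% fell). In MYC_Twist1_OFF against MYC_Twist1_HCC 2 fell (33.5% of all genes), or 7 without MYC_HCC 4 (36.6%). In MYC_Recur against MYC_OFF 2 rose (37.5% of all genes), or 7 without it (40.9%). Hsd17b4, which shortens the side chain in peroxisomes, ran from 39.2 to 189 in MYC_HCC and from 10.7 to 16.4 in MYC_OFF (-2.18, limma adjusted p = 0.000168). It also fell in the Twist1-labelled pair (-1.34, limma adjusted p = 0.0113). Akr1d1, the reductase of the sterol ring, fell in MYC_OFF (-1.57, limma adjusted p = 0.00263, or -1.12 and limma adjusted p = 0.000134 without MYC_HCC 4). Without that library Akr1d1 also fell in the Twist1-labelled pair (-0.90, limma adjusted p = 0.000857) and rose in MYC_Recur against MYC_OFF (0.76, limma adjusted p = 0.0062), and Hsd17b4 also rose there (1.03, limma adjusted p = 0.0048). Slc27a2, a coenzyme A ligase for sterol intermediates, fell in both OFF comparisons (-0.92 and -1.19, limma adjusted p = 0.00319 and 0.000611) and rose in MYC_Recur against MYC_OFF (1.04, limma adjusted p = 0.00352).

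The enzymes that open the 2 synthesis routes differed. Cyp27a1, the sterol hydroxylase of the alternative route, had medians of 4.96 in MYC_HCC, 1.93 in MYC_OFF and 5.43 in MYC_Recur. It fell in MYC_OFF (-1.35, limma adjusted p = 0.00141) and rose in MYC_Recur against MYC_OFF (1.06, limma adjusted p = 0.0186). In the Twist1-labelled pair Cyp27a1 was called only without MYC_HCC 4 (-0.76, limma adjusted p = 0.0551 with it and 0.00294 without it). Cyp7a1, of the classic route, had medians of 2.73, 2.85 and 2.83 in those 3 groups and was not called in any comparison. Cyp8b1, which sets the share of cholic acid, had medians of 1.21, 1.15 and 0.85 there and was not called either.

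Among 7 other transporters tested, 3 fell in MYC_OFF against MYC_HCC (Tmem30a, Abcc3 and Abcg2), near the 39.4% of all genes that fell. In the Twist1-labelled pair 2 fell (Tmem30a and Abcc3), near the 33.5% of all genes. In MYC_Recur against MYC_OFF 3 rose (Tmem30a, Abcc3 and Atp8b1), near the 37.5% of all genes, and 1 fell (Abcg2), against 12.0%. Without MYC_HCC 4 Abcg2 was no longer called in MYC_OFF against MYC_HCC (-0.85, limma adjusted p = 0.0564) and Abcc4 was (-0.90, limma adjusted p = 0.00545). In the Twist1-labelled pair 3 then fell, with Abcc4 added (36.6% of all genes), and 1 rose, Slc51b (1.28, limma adjusted p = 0.0309, against 14.1% of all genes). Abcc3, a basolateral exporter of organic anions, had medians of 5.68 in MYC_HCC, 2.13 in MYC_OFF and 4.22 in MYC_Recur (-1.12 and 0.91, limma adjusted p = 0.000675 and 0.00904). Tmem30a, the subunit that phospholipid flippases need, had medians of 21.6, 10.9 and 28.2 (-0.97 and 1.30, limma adjusted p = 0.000333 and 8.25e-05). In MYC_Recur against MYC_OFF 4 rose without MYC_HCC 4, with Abcc4 added (40.9% of all genes), and 2 fell, with Slco2b1 added (12.8%). Abcg2, a canalicular exporter of xenobiotics, was lowest in MYC_Recur, as Abcc2 was. It stood at 0.72 to 2.63 there, against 3.82 to 10.9 in MYC_OFF (-1.69, limma adjusted p = 0.0017) and 11.6 to 15.6 in MYC_HCC (-2.55, limma adjusted p = 0.000193). Of the 9 sensing and regulation genes tested, 6 fell in MYC_OFF against MYC_HCC (39.4% of all genes), 5 fell and 1 rose in the Twist1-labelled pair (33.5% and 13.1%), and 6 rose in MYC_Recur against MYC_OFF (37.5%). The gene that rose was Nr1i3, the xenobiotic receptor CAR (1.41, limma adjusted p = 0.0229). Without MYC_HCC 4, 7 fell in the Twist1-labelled pair (36.6% of all genes), and Nr1i3 also rose in MYC_OFF against MYC_HCC (0.95, limma adjusted p = 0.0488).

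Rxra, the partner receptor of FXR, ran from 21.4 to 46.6 in MYC_HCC, 1.2 to 3.4 in MYC_OFF and 19.1 to 27.1 in MYC_Recur. Its differences were -3.43 in MYC_OFF (limma adjusted p = 5.28e-06), -2.22 in the Twist1-labelled pair (limma adjusted p = 0.000677) and 3.02 in MYC_Recur against MYC_OFF (limma adjusted p = 9.36e-05). One MYC_Twist1_OFF library, at 15.9, lay apart from a group median of 2.28. Nr1h4, FXR itself, had medians of 19.4 in MYC_HCC, 7.4 in MYC_OFF and 20.2 in MYC_Recur. It fell in MYC_OFF (-1.50, limma adjusted p = 0.000538), rose in MYC_Recur against MYC_OFF (1.34, limma adjusted p = 0.00398) and was not called in the Twist1-labelled pair with all libraries (-0.45, limma adjusted p = 0.251). It was called lower there without MYC_HCC 4 (limma adjusted p = 0.0361), and its libraries did not overlap, at 11.4 to 15.2 in MYC_Twist1_HCC and 8.12 to 10.8 in MYC_Twist1_OFF. Fgfr4 and Klb, the receptor and coreceptor through which the gut hormone FGF15 restrains bile acid synthesis, fell in both OFF comparisons (Fgfr4 -1.43 and -1.32, Klb -1.48 and -1.54) and rose in MYC_Recur against MYC_OFF (1.93 and 1.51), with limma adjusted p of at most 0.000379 for all 6. Hnf4a, a hepatocyte transcription factor, had medians of 110, 82.1 and 62.8 in MYC_HCC, MYC_OFF and MYC_Recur and was not called in those 3 comparisons. Nr0b2, the repressor SHP that FXR induces, was at most 2.63 in any library, was listed at 0 in 7 libraries and was not tested.

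**Figure D4:**
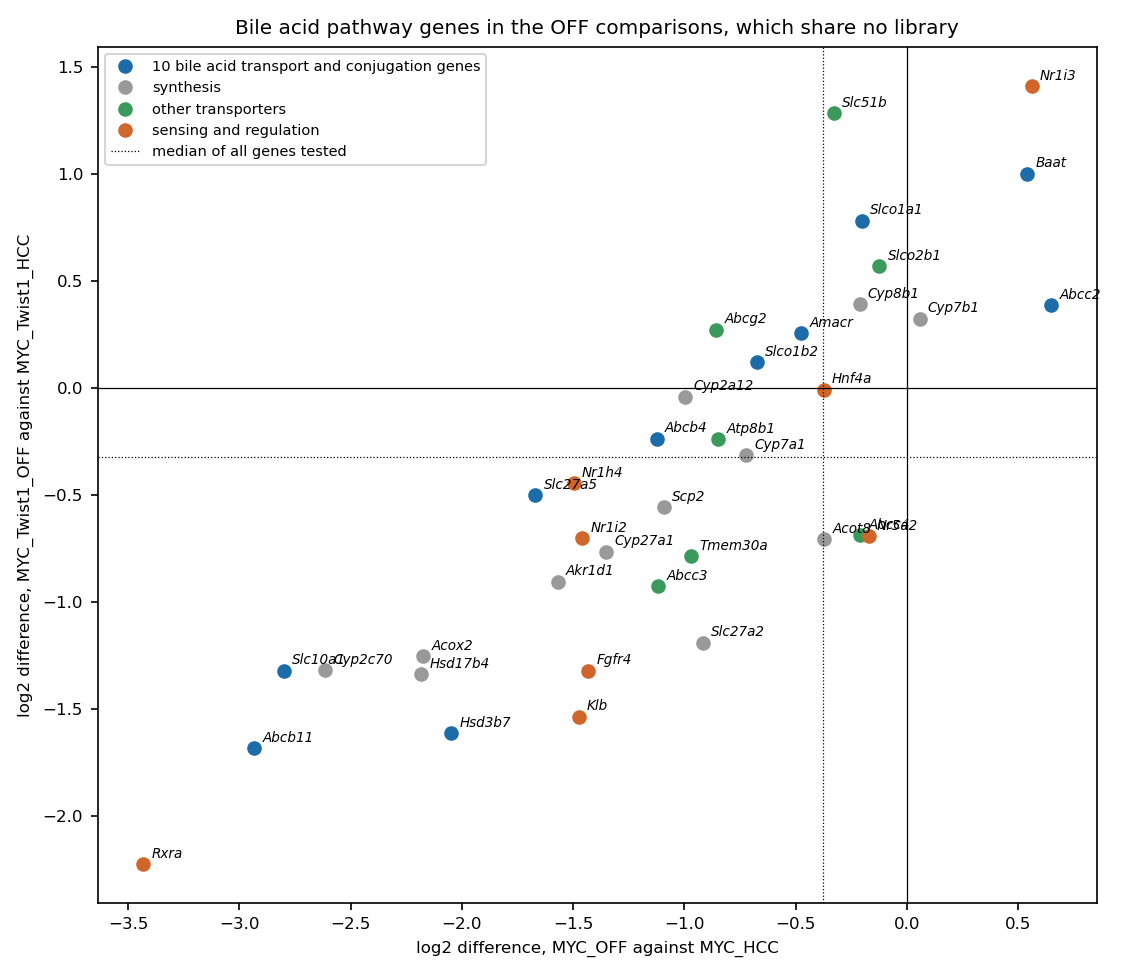
Each point is 1 gene, with its log2 difference in MYC_OFF against MYC_HCC on the x axis and in MYC_Twist1_OFF against MYC_Twist1_HCC on the y axis; dotted lines mark the median of all genes tested. Abcb11, Slc10a1 and Hsd3b7 lie low on both axes with Rxra, and Abcc2 and Baat lie above 0 on both.

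Markers of whole cell types moved with these groups, and in bulk tissue fewer cells of a type and less RNA per cell cannot be told apart. The 21 mature hepatocyte markers summed to between 9688 and 21333 in MYC_HCC (at most 11797 without MYC_HCC 4), 6936 and 9331 in MYC_Twist1_HCC, 4793 and 4939 in MYC_OFF, 8428 and 10766 in MYC_Recur, and 4453 and 5218 in MYC_Twist1_OFF. Of the 21, 16 fell and 1 (Ass1) rose in MYC_OFF against MYC_HCC, where 39.4% of all genes fell. In the Twist1-labelled pair 11 fell and 1 rose (33.5% of all genes fell), or 14 and 2 without MYC_HCC 4 (36.6%). In MYC_Recur against MYC_OFF 14 rose and 1 fell (37.5% of all genes rose), or 16 and 1 without MYC_HCC 4 (40.9%). Alb was at 1450 to 4480 in MYC_HCC, 255 to 411 in MYC_OFF and 1409 to 2280 in MYC_Recur. The labelled tissue is carcinoma of the liver, and hepatocyte markers were present in every library.

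Cholangiocyte markers, 12 genes, summed to 35.7 to 96.8 in MYC_HCC, 59.1 to 78.1 in MYC_Twist1_HCC, 35.1 to 53.2 in MYC_OFF, 66.2 to 76.0 in MYC_Recur and 41.4 to 49.3 in MYC_Twist1_OFF. Of 6 tested, 2 fell in MYC_OFF against MYC_HCC, or 3 without MYC_HCC 4, near the 39.4% and 41.6% of all genes. In the Twist1-labelled pair 2 fell and in MYC_Recur against MYC_OFF 2 rose, near the 33.5% and 37.5% of all genes. Spp1 fell in both OFF comparisons and rose in MYC_Recur against MYC_OFF, while Krt19 was at most 1.64 and Cftr at most 0.25 anywhere. Endothelial markers summed to 5.17 to 10.8 in MYC_Recur, 32.5 to 88.9 in MYC_OFF and 65.7 to 114 in MYC_Twist1_OFF, against 9.4 to 21.01 in MYC_Twist1_HCC and 11.2 to 83.0 in MYC_HCC (at most 20.1 without MYC_HCC 4), most of it Pecam1 in the OFF groups, where Cdh5 was at most 3.81. T and NK cell markers summed to 8.69 to 30.4 in MYC_OFF and 12.98 to 17.71 in MYC_Twist1_OFF, and to at most 9.14 in each of the other 3 groups. Of 6 tested, 3 rose in MYC_OFF against MYC_HCC, or 2 without MYC_HCC 4 (18.9% and 19.2% of all genes), and 3 in the Twist1-labelled pair (13.1%). Erythroid markers, 5 genes, summed to 268 to 361 in MYC_HCC, 134 to 250 in MYC_Twist1_HCC, 101 to 151 in MYC_OFF, 275 to 373 in MYC_Recur and 99.4 to 113 in MYC_Twist1_OFF. Hba-a1 fell in both OFF comparisons (-1.49 and -1.03, limma adjusted p = 1.54e-05 and 0.000895) and rose in MYC_Recur against MYC_OFF (1.46, limma adjusted p = 8.59e-05). The globin Hba-a1 alone stood at 262 to 355 in MYC_HCC. Alas2, of heme synthesis, rose in MYC_OFF against MYC_HCC (0.69, limma adjusted p = 0.0151). Neutrophil markers summed to 37.3 to 263 in MYC_OFF and 53.7 to 135 in MYC_Twist1_OFF, and to at most 63.2 in each of the other 3 groups. The neutrophil markers did not move together. In both OFF comparisons Csf3r rose (4.24 and 2.53, limma adjusted p = 4.71e-06 and 0.0012) and S100a9 fell (-1.76 and -1.44, limma adjusted p = 0.000383 and 0.00296). Macrophage markers overlapped between all groups, at 189 to 561 in MYC_HCC and 517 to 564 in MYC_OFF. Stellate cell and fibroblast markers, 10 genes, summed to 32.2 to 141 in MYC_HCC (at most 76.6 without MYC_HCC 4) and 21.5 to 51.0 in MYC_OFF. They summed to 23.25 to 29.35 in MYC_Twist1_HCC, 32.9 to 39.2 in MYC_Twist1_OFF and 36.9 to 95.1 in MYC_Recur. Of 9 tested, 2 fell and 1 rose in MYC_OFF against MYC_HCC (39.4% and 18.9% of all genes). In the Twist1-labelled pair 0 fell and 2 rose (33.5% and 13.1%). Of the 10, Dcn was at 0 in every library of both OFF groups. Lyve1, an endothelial marker, was at 0 in every MYC_Recur library. Whether these shifts contribute to the bile acid gene differences was not tested.

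Likeness of pattern was measured by Pearson's r of log2(value + 1) and is given as a description, since the libraries fall into groups and share their normalization. Over 19 libraries the genes most like Slc10a1 were Qsox1 (r = 0.992), F10 (0.983) and Kng2 (0.979). Over the 18 without MYC_HCC 4 they were Fam3a (0.984), Qsox1 (0.983) and Rogdi (0.978). For Abcb11 they were Kng2 (0.978), Apof (0.977) and Mut (0.970) over 19 libraries, and Cmss1 (0.975), Bag2 (0.974) and Alg5 (0.973) over 18. None of the 3 nearest genes of Abcb11 was shared between the sets of libraries, and 1 of the 3 of Slc10a1 was.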

How the data were processed

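Bulk RNA of 19 mouse liver tumor samples was sequenced, per the labels, from flash-frozen tumors with RNA taken by a Qiagen RNeasy kit and libraries made by BGI methods. The authors deposited 1 table of normalized signal per gene symbol, with 2 decimals. The build mm10 and the tools DESeq2, featureCounts, Picard, STAR and Trimmomatic are listed by the submitters' processing notes, without roles or versions; the formula of the values, the annotation and the settings were not given in the sources used here. Because these are not raw counts, depth is unknown and no counting interval can be given. Of 19511 symbols, 25 were bare numbers and were left out.

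Genes with a value of at least 1 in at least 3 libraries were tested (13253). On the log2(value + 1) scale, 5 group means were fitted together (14 residual degrees of freedom) by limma 3.58.1, run in R 4.3.3, letting the prior spread follow the mean level. Each of 7 comparisons has two-sided p-values, adjusted by Benjamini-Hochberg over all genes, and a gene that rose or fell has an adjusted p under 0.05. The log2(value + 1) scale understates changes of low genes. Alternatives were 2 other pseudocounts, 2 other filters, 4 scalings, fits of the compared groups alone, without the intensity trend or with a replicate block, and left-out libraries.

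The genes and lists were chosen with earlier results of these data known. The rule names all 10 genes, 5 fixed pathway genes, the 3 called genes of smallest p per pathway list and comparison, up to 3 abundant markers per cell type, and the 3 genes most like Slc10a1 and Abcb11; Atp8b1, Nr1i3, Hnf4a, Slc51b, Abcc4, Slco2b1, Tdo2, Spp1, Krt19, Cftr, Dcn, Lyve1 and Bc1 were added after their values were seen. Myc and Twist1 check the labels. Some list genes and a motif are not reported here and not drawn; list counts and sums include those genes. Symbols deposited in capitals were matched to mouse gene names, and positions are from GENCODE on GRCm38. The test was checked on simulated data with 200 of 13253 genes changed. It recovered 85% of 4-fold and 34% of 2-fold changes for MYC_OFF against MYC_HCC, and 80% and 32% for MYC_Recur against MYC_OFF. For the interaction it recovered 73% and 16%. In the data far more genes changed in MYC_OFF against MYC_HCC (39.4% lower, 18.9% higher) and in MYC_Recur against MYC_OFF (12.0% lower, 37.5% higher). The Benjamini-Hochberg threshold is looser there, so the rates for those comparisons do not carry over to the data. For the interaction only 0.0981% of all genes were called in the data. The threshold is stricter there than in the simulation, so those rates do not carry over either. The changed genes were drawn from those of higher mean level, so no rate covers low genes such as Slco1a1.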

Additional observations from a re-analysis of the deposited data

Results flagged for a closer look

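In groups of 5 libraries, 10 genes in 2 groups gave 20 sets of values, and in 8 of them the highest library lay far from the rest of its group by Dixon's test. All 8 were MYC_HCC 4: Slc10a1 at 206.15, Slco1b2 at 77.31, Abcb11 at 99.12, Abcb4 at 24.31, Abcc2 at 20.78, Baat at 43.71, Amacr at 54.29 and Slc27a5 at 71.26. The gap to the next library took from 0.74 (Abcc2) to 0.98 (Abcb11) of the whole range, against a limit of 0.71. For normally distributed values chance gives about 1 in 20 such sets. The test was run on the deposited values and not on the log scale, so that rate may not hold here. These 8 come from 1 library, so they are not independent of each other. Hsd3b7 and Slco1a1 in MYC_HCC, and all 10 genes in MYC_Twist1_HCC, did not pass the test.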

How the results depend on the processing

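Lower Slc10a1, Abcb11 and Hsd3b7 in MYC_OFF than in MYC_HCC kept their direction and their call under all 16 other settings and with each library left out in turn; so did lower Hsd3b7 in MYC_Twist1_OFF, and lower Abcc2 and higher Hsd3b7 in MYC_Recur than in MYC_OFF. In the other comparisons the number of the 10 genes called depended on the setting. The share of all genes called under each setting is not given here, so these counts say nothing particular to the 10 genes. For MYC_Twist1_OFF against MYC_Twist1_HCC, 2 with all libraries, it was 1 with a pseudocount of 5, no filter, trimmed-mean or same-total scaling, 6 in a fit of those groups alone, and 5 without MYC_HCC 4 and 5. For MYC_Recur against MYC_OFF, 4 with all libraries, it was 2 with a pseudocount of 5, no filter or any of the 4 scalings. For MYC_Twist1_HCC against MYC_HCC it was 0 in place of 1 in a fit of those groups alone and without MYC_HCC 4 and 5, and for MYC_OFF against MYC_HCC 5 in place of 3 without those libraries. Not every smaller change of a count is listed. Without MYC_HCC 4 and 5 the count for MYC_Recur against MYC_OFF was 5, with Slc27a5 added. For MYC_OFF against MYC_HCC, a pseudocount of 0.1 added Slc27a5. Median of ratios, trimmed mean and upper quartile each added Abcc2 there. After the data were seen, the 4 scalings were also run with MYC_HCC 4 left out. These gave 0 for MYC_Twist1_HCC against MYC_HCC and 5 for MYC_OFF against MYC_HCC in each, and 6, 5, 6 and 3 (median of ratios, trimmed mean, upper quartile, same total) for MYC_Twist1_OFF against MYC_Twist1_HCC. With 1 library left out the counts ran from 0 to 1, 3 to 5, 1 to 3 and 2 to 4 for MYC_Twist1_HCC and MYC_OFF against MYC_HCC, MYC_Twist1_OFF against MYC_Twist1_HCC and MYC_Recur against MYC_OFF. They stayed at 0 in the 2 comparisons and the interaction with no call. The cause was not tested.

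The labels do not say that replicate numbers pair the samples, and no paired reading was made. Correlations of same-numbered deviations ran from -0.17 to 0.38, and the same number was the best match for some libraries and not for others. With so few libraries this cannot exclude a pairing. With the replicate number as a block, the counts were 1, 3, 2 and 4 in the 4 comparisons with calls and 0 in the others; in MYC_Twist1_OFF against MYC_Twist1_HCC Slco1a1 was gained (1.06) and Abcb11 lost (-1.32). Under the block 3 uncalled differences changed sign, Slco1a1 in MYC_OFF against MYC_HCC (0.078), Abcb4 in MYC_Twist1_OFF against MYC_Twist1_HCC (0.23) and Baat in MYC_Recur against MYC_HCC (0.30).

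Of 1588 values for single genes, 42 changed sign, none of them called on either side. Besides the 3 above, these were, for MYC_OFF against MYC_HCC, Slco1a1 (0.038) and Amacr (0.059) under median of ratios and Slco1a1 (0.027) and Amacr (0.051) under upper quartile, and for MYC_Twist1_OFF against MYC_OFF Amacr (-0.000253) under median of ratios and Slc27a5 (0.0092 with a pseudocount of 0.1, 0.027 at the same total). Without MYC_HCC 4 and 5 they were Slco1b2 (0.41) and Baat (0.22) in MYC_Twist1_HCC against MYC_HCC, Slco1a1 (0.34) and Slco1b2 (0.38) in MYC_OFF against MYC_HCC, Slco1b2 (0.22), Abcb4 (0.26) and Baat (0.49) in MYC_Recur against MYC_HCC, and Slco1b2 (-0.26), Abcb4 (-0.014) and Baat (-0.082) in the interaction. With 1 library left out, sign changes lay within these ranges. For Baat they were -0.55 to 0.31 (MYC_Twist1_HCC against MYC_HCC), -0.27 to 1.22 (MYC_OFF against MYC_HCC), -1.28 to 0.22 (MYC_Recur against MYC_OFF), -0.31 to 0.58 (MYC_Recur against MYC_HCC), -0.55 to 0.95 (MYC_Twist1_OFF against MYC_OFF) and -0.22 to 1.27 (interaction). For Slco1b2 they were -0.97 to 0.12 (MYC_Twist1_HCC against MYC_HCC) and -0.99 to 0.090 (MYC_OFF against MYC_HCC), and for Slco1a1 -0.67 to 0.052 (MYC_OFF against MYC_HCC). For Amacr they were -0.25 to 0.046 (MYC_Recur against MYC_OFF) and -0.083 to 0.35 (MYC_Twist1_OFF against MYC_OFF), for Slc27a5 -0.11 to 0.12 (MYC_Twist1_OFF against MYC_OFF) and for Abcc2 -0.54 to 0.055 (interaction). The depth of the libraries is unknown, so what it limits cannot be given.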
